A study of Saccharomyces cerevisiae with 93 samples.

Results

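Budding yeast cells with 1 copy of the human alpha-synuclein gene were compared with cells that held an empty vector, after 2 h in galactose, on 3 arrays of the 93 in the series. These 3 arrays are the ones whose titles name 1-copy against vector at 2 h, and they carry the labels' numbers 1 to 3. Each gave a log2 ratio for 6377 probes. The 1-copy RNA was labelled with Cy5 and the vector RNA with Cy3 on each, and a positive value was read as more RNA in the 1-copy cells.

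In the wider series, yeast that models alpha-synuclein toxicity was sampled as 1-copy, 2-copy and vector cells at 0, 2, 4 and 6 h of galactose induction. At every time the 3 strains were set against each other in all combinations, so that each comparison below has 3 arrays. Later arrays of the series, with 6 compounds at 4 h, entered only the estimate of spread. Vector cells were put into galactose like the others, so that both sides of each ratio share the medium and the hours in it. The strain is given on the label of a single 2-copy array with a compound: a W303 strain of mating type a with both drug pump regulators PDR1 and PDR3 disrupted, and with integrated pRS304 and pRS306 plasmids that carry alpha-synuclein fused to green fluorescent protein behind a galactose promoter. The labels do not say which plasmid the 1-copy cells held, which vector the control cells held or how many clones were used. No probe measures alpha-synuclein, so that its induction in the 1-copy cells could not be checked.

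Alpha-synuclein is a small lipid-binding protein that accumulates in the Lewy bodies of Parkinson's disease. In yeast it binds the plasma membrane at low dose, while at higher dose it gathers in cytoplasmic foci, slows traffic from the endoplasmic reticulum (ER) to the Golgi and stops growth. One copy of the galactose-driven gene is known as a dose that yeast tolerates, and 2 copies as a toxic dose. The comparison at 2 h therefore sets the low dose against its vector control early in induction.

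The 3 arrays had SDs of 0.313, 0.25 and 0.355 over probes, and medians of 0.01 each. A log2 ratio past 1 in either direction, a 2-fold difference, was seen at 88, 30 and 114 probes of arrays 1, 2 and 3. On arrays 1 and 3 most of these were lower in 1-copy cells (86 and 109), while array 2 had 14 higher and 16 lower. Array 2 stood apart from the others. Across probes, Pearson's r was 0.551 between arrays 1 and 3, 0.147 between 1 and 2, and 0.127 between 2 and 3. Without the mitochondrial probes and a group of 31 unnamed probes described below, the values were 0.499, 0.365 and 0.274.

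Differences from the vector were few and mostly small. As the RNA came from whole cultures, a lower value from fewer cells of a type and one from less RNA per cell cannot be told apart. In a limma fit over all 93 arrays, 304 of 6377 probes (4.77%) had an adjusted p below 0.05, of which 37 (0.58%) were higher and 267 (4.19%) lower in 1-copy cells. Means of the higher probes ran from 0.23 to 1.07 with a median of 0.40, and means of the lower ones from -2.15 to -0.27 with a median of -0.49. Of the 304 probes, 276 had 1 sign on all 3 arrays, and 171 had a mean smaller than 0.5 in size. Only 4 probes (0.0627%) were past 1 in the same direction on every array, all lower: URA3, ARO9 and the unnamed YBR174C and YLR232W. Of all calls 12.2% were higher; the share was 25.8% with arrays scaled to one spread, 34.4% with array weights, 22.3% with the replicate number as a block and 30.6% on the other arrays at 2 h. When a term for the dye was added, 1 of the 304 calls, URA3, was kept. All 304 estimates kept their sign with that term, and the medians were 0.24 for the higher and -0.32 for the lower probes. In a fit to the 3 arrays alone the count was 0, with 1435 probes at an unadjusted p below 0.05 in limma against 953 in the fit over all arrays.

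URA3 (YEL021W), the orotidine phosphate decarboxylase of pyrimidine synthesis and a common selection marker, was lower on every array and was the call that the dye term kept. Its log2 ratios were -1.74, -1.68 and -1.27 on arrays 1 to 3. The 3 arrays lay close together, with a mean of -1.56 ± 0.258 (SD, n = 3; limma adjusted p = 1.89e-05, and an estimate of -2.62 with adjusted p = 0.000231 with the dye term). The other arrays at 2 h also gave a value for 1-copy over vector, as the sum of 2-copy over vector and 1-copy over 2-copy, and for URA3 these sums were -2.22, -1.01 and -2.04. Per the design text each sample was hybridised in all combinations, so that both routes share their cultures. Without a dye swap, a dye effect enters the direct ratio from 1 array and the sum from 2. A sign that both routes share therefore cannot tell a strain difference from a dye effect, for this or any other gene. At 0 h its ratios were -0.43, -1.52 and -1.55, at 4 h -2.35, -2.13 and -2.29, and at 6 h -1.97, -1.93 and -2.74. All 12 arrays of 1-copy over vector were thus below 0, and the change from 0 h to 2 h did not pass the test (-0.40, SE 0.357, adjusted p = 1). Its neighbours on the chromosome in the reference assembly R64, GEA2 (YEL022W, -0.05 ± 0.0946) and TIM9 (YEL020W-A, 0.19 ± 0.16), did not pass.

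TRP1 (YDR007W), of tryptophan synthesis and the other marker of the 2 plasmid types, was level with the vector in 1-copy cells at -0.02, -0.13 and 0.14. In 2-copy cells at 2 h it was at 1.59, 1.46 and 1.63, with no overlap between the groups. The difference of the means was -1.56 (SE 0.339, adjusted p = 0.00907). At 0 h TRP1 read -0.72, -0.45 and -0.25 in 1-copy cells (limma adjusted p = 0.374) and 0.31, -0.17 and 0.94 in 2-copy cells. The change from 0 h to 2 h in 1-copy cells did not pass the test (0.47, SE 0.339), and that of 2-copy cells was not tested. As background, pRS304 carries TRP1 and pRS306 carries URA3. On URA3 the 1-copy and 2-copy cells did not differ beyond the test: the difference was 0.12 (SE 0.357, adjusted p = 0.999), and the 1-copy over 2-copy arrays read 0.02, -0.23 and -0.00. The genes beside TRP1, SOK1 (YDR006C, 0.04 ± 0.176) and GAL3 (YDR009W, -0.05 ± 0.854), did not pass, although GAL3 read -1.03 on array 3 against 0.32 and 0.55. Among the other strain markers HIS3 (YOR202W) read -0.18, -0.20 and -1.25, so that array 3 set its mean of -0.54 (adjusted p = 0.138). LEU2, ADE2, CAN1, PDR1 and PDR3 had means between -0.35 and 0.11 and none passed.

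UTR1 (YJR049C), an NAD kinase, was about as low at 0 h as on arrays 1 and 2 at 2 h. It read -2.04, -2.09 and -0.25 at 2 h, a mean of -1.46 ± 1.05 (adjusted p = 9.41e-05; with the dye term the estimate was -1.43 and adjusted p = 0.105). Array 3 lay near 0, apart from the others. At 0 h it read -2.24, -2.22 and -2.20, at 4 h -2.02, -1.77 and -1.83, and at 6 h 0.00, -1.54 and -1.72. The sums over the other arrays at 2 h were -0.96, -2.27 and -0.52. Its neighbours in the reference, the cytochrome c gene CYC1 (YJR048W, 0.23 ± 0.305) and the splicing factor gene ISY1 (YJR050W, -0.22 ± 0.0781), did not pass. YAP3 (YHL009C), a bZIP transcription factor, had a like course, with -1.22, -1.03 and -0.28 at 2 h (mean -0.84 ± 0.494, adjusted p = 5.54e-05), -0.83, -1.20 and -0.76 at 0 h, and -1.02, -1.09 and -1.09 at 4 h. For YAP3 the other arrays at 2 h did not show it, since their sums were 0.23, 0.00 and -0.24.

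The lowest named gene by mean was ARO9 (YHR137W), the aromatic aminotransferase that starts the breakdown of tryptophan, phenylalanine and tyrosine. Its ratios were -1.39, -2.76 and -2.15, a mean of -2.10 ± 0.685 (adjusted p = 0.00139, and 1 with the dye term, where the estimate was -1.52). At 0 h they were -0.33, -0.69 and -0.37, closer to 0 than any array at 2 h, but the change did not pass the test (-1.63, SE 0.635, adjusted p = 1). In 2-copy cells ARO9 read -1.76, -3.10 and -2.34, and the 2 groups overlapped. Among other genes of aromatic catabolism, the decarboxylase gene ARO10 read -0.36, -1.37 and -0.39 (adjusted p = 0.347) and PDC6 -0.41, -0.58 and -0.39 (adjusted p = 0.0582). ARO80, the activator of ARO9 and ARO10, had a mean of 0.13.

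The next lowest genes were near -1 and were mostly lower at 0 h too. SPR28 (YDR218C), a septin of sporulation, read -1.38, -0.83 and -1.03 (mean -1.08 ± 0.281, adjusted p = 1.05e-05). RRT12 (YCR045C), a protease of spore wall formation, read -0.98, -0.94 and -1.22 (mean -1.05 ± 0.148, adjusted p = 1.89e-05). Both were below 0 on all 3 arrays at 0 h as well, where SPR28 averaged -0.88 and RRT12 -0.75. GPI19 (YDR437W), a subunit of the enzyme that starts glycosylphosphatidylinositol anchors, was at -0.94, -0.58 and -1.07, and RSB1 (YOR049C), a membrane protein linked to export of sphingoid bases, at -0.91, -0.65 and -0.99. RIF2 (YLR453C), a telomere-binding protein, had a mean of -0.80 ± 0.324, and ECM23 (YPL021W) of -0.83 ± 0.304. EGO4 (YNR034W-A, -0.91 ± 0.112), AUA1 (YFL010W-A, -0.92 ± 0.391), JIP4 (YDR475C, -0.78 ± 0.361) and the exoglucanase gene EXG2 (YDR261C, -0.83 ± 0.594) followed. ECM34 (YHL043W) owed its mean of -1.01 to array 2, where it read -2.23 against -0.17 and -0.62; without that array its mean was -0.39 (adjusted p = 0.108), and the sum over the other arrays of that number was 0.47. Of these 15 lowest genes, 15 were below 0 on all 3 arrays at 0 h, 11 were called lower there, as were 1.93% of probes, and 11 were called whichever single array at 2 h was left out. Besides ECM34, the exceptions were AUA1 and EXG2 without array 3 (adjusted p = 0.171 and 0.376) and JIP4 without array 1 or 3 (0.139 and 0.198). Only 1 of these 15, URA3, kept its call with the dye term, and all 15 kept their sign. RSB1 had an estimate of -0.27 there and a dye coefficient of -0.58 (limma adjusted p = 0.00138). The estimates were -0.38 for GPI19, -0.42 for EGO4, -0.32 for AUA1 and -0.33 for JIP4, against -0.98 for ECM34 and -0.87 for EXG2. As the 0 h arrays carry the same dyes, a strain difference and a dye effect cannot be told apart there.

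Higher genes were fewer and closer to 0. GCY1 (YOR120W), a glycerol dehydrogenase whose gene is induced by galactose, read 1.01, 0.64 and 0.86, a mean of 0.83 ± 0.184 (adjusted p = 0.0225). SDD1 (YEL057C) read 0.71, 0.76 and 1.03, and the peptide transporter gene OPT2 (YPR194C) 0.58, 0.74 and 0.59, with means of 0.83 ± 0.176 and 0.64 ± 0.0873. For these 3 genes the arrays lay close together and the sums over the other arrays at 2 h were above 0 on each number. OPT2 was also above 0 on all arrays at the other times, from 0.37 to 0.83, whereas GCY1 averaged 0.25 at 0 h and 0.12 at 6 h. For GCY1 the changes from 0 h to 2 h (0.58, SE 0.334) and from 2 h to 6 h (-0.71, SE 0.334) did not pass the test. MST27 (YGL051W), which binds vesicle coats, had the highest mean, 1.07 ± 1.26, through array 2 alone: it read 0.30, 2.52 and 0.39, and without array 2 its mean was 0.35 (adjusted p = 0.319). Its paralogue MST28 (YAR033W) read 0.39, 0.59 and 0.38; whether the probes of the 2 paralogues cross-hybridise was not analysed here. CDC37 (YDR168W), a co-chaperone of Hsp90, likewise rested on array 2, with 0.06, 1.08 and 0.11, and a mean of 0.08 without it (adjusted p = 0.849).

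The remaining 9 of the 15 highest genes had means of 0.42 to 0.45. They were the mRNA decay factor gene CTH1, the DNA damage repressor gene RFX1, the cohesion acetyltransferase gene ECO1, AIM6, the isomaltase gene IMA1, CAB3 of coenzyme A synthesis, the meiotic regulator gene NDT80, SWI6, a shared subunit of the cell cycle factors SBF and MBF, and the glutathione transferase gene GTO1. Array 3 was the highest of the 3 arrays for each of them. None of the 15 highest genes was called under each of the 3 fits that left out 1 array, and none passed with the dye term. GCY1 passed without array 2 (adjusted p = 0.0452) but not without array 1 (0.232) or array 3 (0.203), and OPT2 and SDD1 passed in none of the 3. The plot of the lowest and highest genes shows the spread of each.

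**Figure D1:**
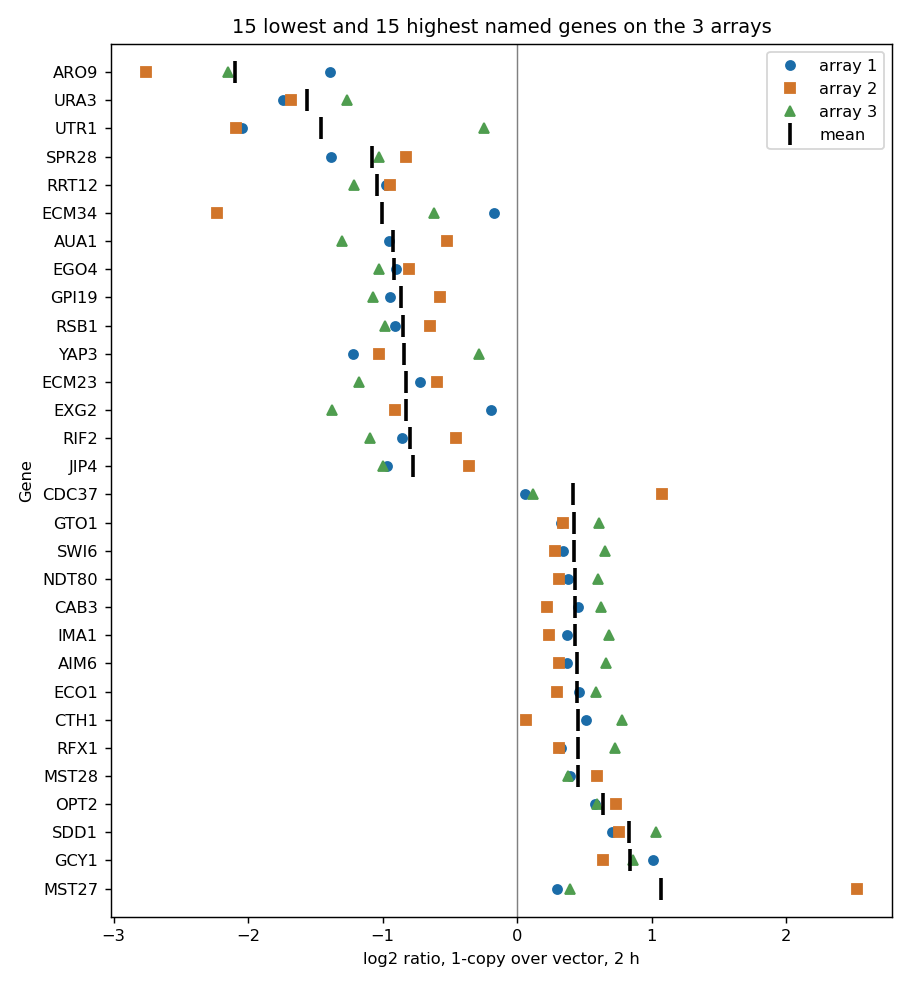
The log2 ratio of 1-copy over vector at 2 h (x axis) of the 15 lowest and 15 highest named genes (y axis), with 1 symbol per array and a black bar at the mean. Array 2 stands alone for ECM34 (-2.23), MST27 (2.52) and CDC37 (1.08), and array 3 for UTR1 (-0.25), while URA3, GCY1 and OPT2 have their 3 arrays close together.

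Probes without a gene symbol took a large share of the lower calls. They numbered 1150 of 6377, and 12% of them were called against 3.18% of the 5227 probes with a symbol. Of the 267 lower probes 134 had no symbol, and 81 of all called probes matched no gene of the reference. The unnamed lower probes had a median of -0.50 at 2 h and -0.34 at 0 h, and the 133 named ones of -0.48 and -0.30. In all, 257 of the 267 lower probes and 36 of the 37 higher ones had the same sign in the mean at 0 h. The share over all probes was not computed. The 0 h arrays carry the same dyes, so that a lasting strain difference and a dye effect cannot be told apart by sign. The dye coefficient of the fit with a dye term, which is the part of a log2 ratio that goes with Cy5 whatever the strain, was negative for 232 of the 267 lower probes (86.9%) and for 42.4% of all probes. It was estimated partly on these same arrays, and its part in the lower values was not tested. YPL080C, chosen here after its values were seen, had the lowest mean of all probes, -2.15 ± 1.89, from -0.02, -3.60 and -2.82. It read 0.14, -3.14 and -2.66 at 4 h and -0.00, -4.72 and -1.72 at 6 h, so that array 1 stood near 0 each time, and -0.14, -0.23 and -0.10 at 0 h.

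Several mitochondrially encoded genes had large values whose direction changed between arrays. The examples OLI1, ATP6 and ATP8 were picked after their values were seen. OLI1 (Q0130), subunit c of the mitochondrial ATP synthase, read -3.70, 3.59 and -3.84. ATP6 (Q0085) read -2.90, 1.32 and -3.27, and ATP8 (Q0080) -2.28, 1.89 and -2.17. All of them were low on arrays 1 and 3 and high on array 2, with means of -1.32, -1.62 and -0.85 that did not pass (adjusted p = 0.604, 0.371 and 0.669). The intron-encoded reading frames of COX1 followed the same course: AI5_ALPHA read -1.57, 2.19 and -2.60. COX1 itself read -0.14, 0.03 and -0.27, COX2 -0.20, -0.12 and -0.58, and COB -0.46, 0.12 and -0.36. Of 18 named mitochondrial probes, 12 (66.7%) were below 0 on arrays 1 and 3 and above 0 on array 2, as were 10.5% of all probes. One of the 18 passed, BI3, an intron maturase frame of COB, at 0.29, 0.51 and 0.40 (adjusted p = 0.0131).

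This change of direction recurred on the other arrays of the same number. For OLI1 the sums of 2-copy over vector and 1-copy over 2-copy at 2 h were -3.74, 3.53 and -3.79 for numbers 1 to 3. The parts were -3.61, 0.01 and -2.94 for 2-copy over vector, and -0.13, 3.52 and -0.85 for 1-copy over 2-copy. At 0 h OLI1 read 1.75, -2.65 and -1.76, and at 4 h -0.28, -0.18 and -1.01. Nuclear genes of the respiratory chain and ATP synthase had list medians of -0.01, -0.06 and 0.08 on the 3 arrays, and those of the mitochondrial ribosome 0.09, 0.05 and 0.17. The plot of mitochondrial genes sets both routes side by side.

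**Figure D2:**
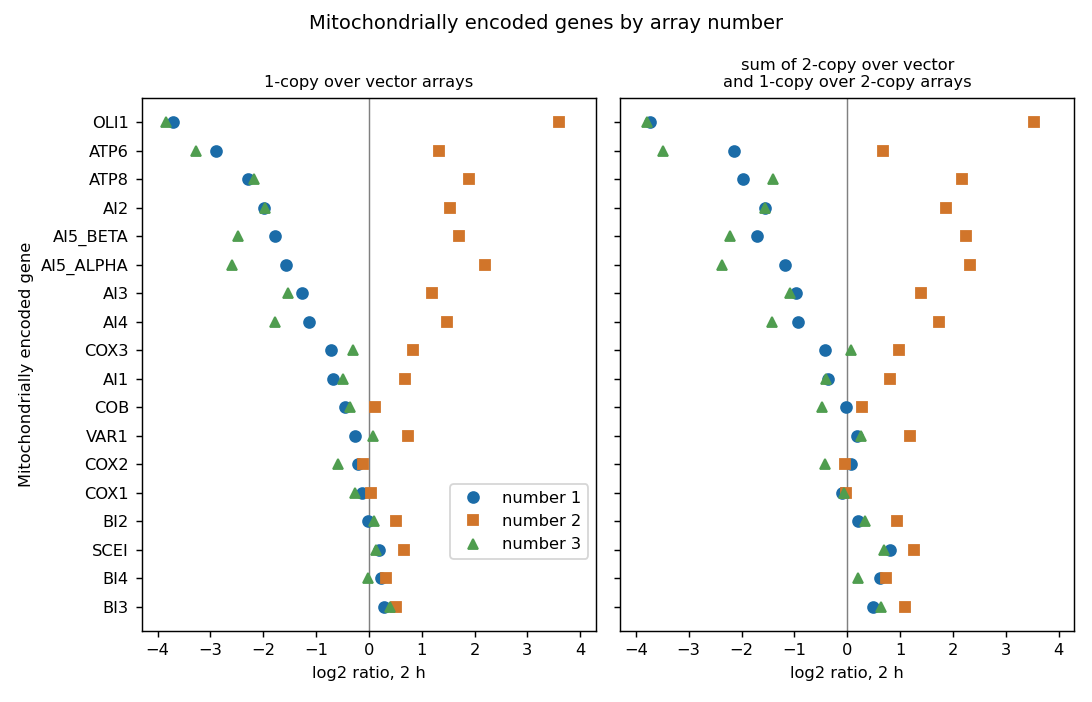
The log2 ratio at 2 h (x axis) of the 18 named mitochondrially encoded genes (y axis) on the 3 arrays of 1-copy over vector (left) and as the sum of the other arrays of the same number (right). From OLI1 (-3.70, 3.59 and -3.84) down to COB (-0.46, 0.12 and -0.36) number 2 lies above 0 and numbers 1 and 3 below, and on the right the same holds except for COX3, where number 3 is just above 0.

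A second group changed direction in the same way. It was picked after its values were seen and holds the 31 probes whose reference genes have no symbol and share one length, 1323 bases. Whether these probes share sequence was not analysed here, so they are not counted as independent. Their median was -1.99 on array 1, 0.76 on array 2 and -1.36 on array 3, and 27 of 31 were below 0 on arrays 1 and 3 and above 0 on array 2. None passed the test. Their medians at 0 h were 0.17, -0.11 and 0.37. Single named genes that were also below 0 on arrays 1 and 3 and above on array 2 were the phospholipase C gene PLC1 (YPL268W; -2.03, 0.48 and -1.55), the copper transporter gene CCC2 (YDR270W; -1.64, 0.31 and -1.22) and HAC1, the transcription factor of the unfolded protein response (-0.85, 0.43 and -1.29). The sums over the other arrays were -0.75, 0.20 and -1.03 for HAC1 and -1.27, 0.28 and -0.02 for CCC2, but 0.19, -0.09 and -0.75 for PLC1.

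Array 3 had 4 genes of its own, also picked after their values were seen. TAH1 (YCR060W), a cofactor of Hsp90, read 0.07, -0.12 and -3.68; RXT2 (YBR095C), of the Rpd3L deacetylase, 0.05, 0.03 and -3.65. MUD1 (YBR119W), of the U1 snRNP, read 0.14, 0.15 and -3.66, and RDH54 (YBR073W), of recombination, 0.23, 0.13 and -3.68. All 4 had an adjusted p below 0.003 although arrays 1 and 2 lay near 0, and the sums over the other arrays lay between -0.05 and 0.29 for number 3 and between -1.06 and -0.67 for number 2. Without array 3 their means were -0.02, 0.04, 0.14 and 0.18.

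Gene groups were described by lists for the processes that alpha-synuclein is known to touch in yeast and for those that could differ between strains. Of 879 measured members of the 33 lists, 14 (1.59%) were called, 3 higher and 11 lower. All members have a symbol, and 3.18% of probes with a symbol were called, against 4.77% of all probes. No member was called in 21 lists, and 28 lists had a median within 0.15 of 0, where the median of all probes was 0.01.

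The lists of protein folding and secretion, processes that alpha-synuclein disturbs at high dose, had 0 or 1 call each in 1-copy cells. As 3.18% of all probes with a symbol were called, such counts do not set these lists apart. Of 20 genes of ER folding and the unfolded protein response 0 were called, with a median of 0.03, the ER chaperone KAR2 (YJL034W) at 0.01, 0.09 and 0.01, and the ER oxidase ERO1 (YML130C) at 0.21, 0.23 and -0.06. ULI1 (YFR026C), induced by the unfolded protein response, read 0.36, 0.27 and 0.81 (adjusted p = 0.83). Of 42 genes of ER to Golgi transport 1 was higher, SEC26 (YDR238C), the beta subunit of the COPI coat, at 0.33, 0.14 and 0.21 (adjusted p = 0.0341, and 0.424 and 0.208 without arrays 1 and 3). Among 24 cytosolic heat shock genes only CDC37 was called, as described above, with a list median of 0.13; SSA1 read 0.03, 0.49 and 0.81, and SSB1 -0.03, 0.17 and -1.41. The proteasome had 0 of 33 members called and a median of 0.09, and its largest mean was that of RPN13 (0.22, 0.30 and 0.52).

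Ribosome and energy genes were near the vector level. None of 137 cytosolic ribosomal protein genes, 56 ribosome biogenesis genes, 67 mitochondrial ribosome genes, 37 nuclear genes of the respiratory chain and ATP synthase, and 17 of the TCA cycle was called. Their list medians were 0.02, 0.04, 0.11, 0.02 and 0.06. General stress genes, 26 in number, had 0 calls and a median of 0.07, with the hexokinase gene HXK1 at -0.89, -0.71 and -0.34 (adjusted p = 0.594). Lists of oxidative stress and redox genes (0 of 29), cell wall integrity targets (0 of 21), histones (0 of 10) and cyclins (0 of 18) had medians of -0.01, -0.09, 0.12 and 0.06.

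Carbon source genes had medians on either side of 0. Of 9 genes of galactose use 1 was higher, GCY1. GAL7 (YBR018C), the uridylyltransferase, read 0.96, 0.26 and 0.60 (adjusted p = 0.0842), while the galactokinase gene GAL1 (YBR020W) read 0.13, -0.05 and 0.02 and the epimerase gene GAL10 (YBR019C) 0.27, -0.05 and -0.01. The transporter gene GAL2 (YLR081W) had a mean of 0.25 ± 0.0928 and the repressor gene GAL80 (YML051W) of -0.06 ± 0.248. Hexose transporters had the lowest list median, -0.34, with 11 of 12 means below 0 and 1 called: HXT8 (YJL214W) at -0.28, -0.16 and -1.09 (adjusted p = 0.00502, and 0.804 without array 3). HXT3 read -1.17, -0.83 and -0.47 (adjusted p = 0.201). The list's medians by array were -0.34, -0.42 and 0.01, so that array 3 did not share the shift, and the median at 0 h was 0.05. Genes for nonfermentable carbon had a median of -0.20 with 0 of 21 called, and of -0.27 at 0 h.

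Mating genes were mostly below 0, with 18 of 20 means negative, 2 called lower and a median of -0.27. AGA1, the anchor of the a-agglutinin, read -0.58, -0.47 and -0.42 (adjusted p = 0.0283), and BAR1 (YIL015W), the protease that cleaves alpha factor, -0.57, -0.49 and -0.14 (adjusted p = 0.0259). PRM1, a membrane protein of cell fusion, read -0.71, -0.76 and -0.77 (adjusted p = 0.153). At 0 h the means of AGA1, BAR1 and PRM1 were -0.13, -0.54 and -0.68, and of these BAR1 was called lower there too (limma adjusted p = 0.0021). AGA1 passed in none of the fits that left out 1 array (adjusted p = 0.258, 0.0942 and 0.165 without arrays 1, 2 and 3), and BAR1 only without array 3 (0.033; 0.375 and 0.162 without arrays 1 and 2). The pheromone genes MFA1 and MFA2 and the receptor gene STE2 of a cells had means of -0.11, -0.29 and -0.27, and the alpha cell genes MF(ALPHA)1, MF(ALPHA)2 and STE3 of -0.15, -0.33 and -0.29; none of them passed.

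Other lists had single calls. PCL2, a G1 cyclin, was lower at -0.43, -0.35 and -0.56 (adjusted p = 0.0224) among 18 genes listed under daughter cell separation, whose median was -0.16. DUR3, the urea transporter (-0.57, 0.07 and -0.82), and UGA4, the GABA permease (-0.46, -0.28 and -0.49), were lower among 21 genes of nitrogen and proline use. FRE7 (YOL152W), a ferric reductase, read -0.45, -0.32 and -0.45 among 28 genes of iron and copper uptake. RSB1 and the drug exporter gene QDR1 (-0.58, 0.12 and -0.97) were lower among 12 drug efflux genes, where PDR5 (YOR153W), the main target of PDR1 and PDR3, read 0.09, 0.19 and 0.07. PCL2, DUR3 and QDR1 passed only when array 2 was left out (adjusted p = 0.0464, 0.00288 and 0.000463), and UGA4 and FRE7 in none of these fits (lowest adjusted p = 0.0595 and 0.0578). At 0 h the means of PCL2, DUR3, UGA4, FRE7 and QDR1 were -0.43, -0.12, -0.32, -0.19 and -0.20. Of these only PCL2 was called lower at 0 h too (limma adjusted p = 0.045). Phosphate, inositol, ergosterol, zinc, amino acid, sulfate, purine and thiamine lists had 0 calls each, with medians between -0.03 and 0.12. By chromosome, the nuclear medians ran from -0.03 to 0.05.

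**Figure D3:**
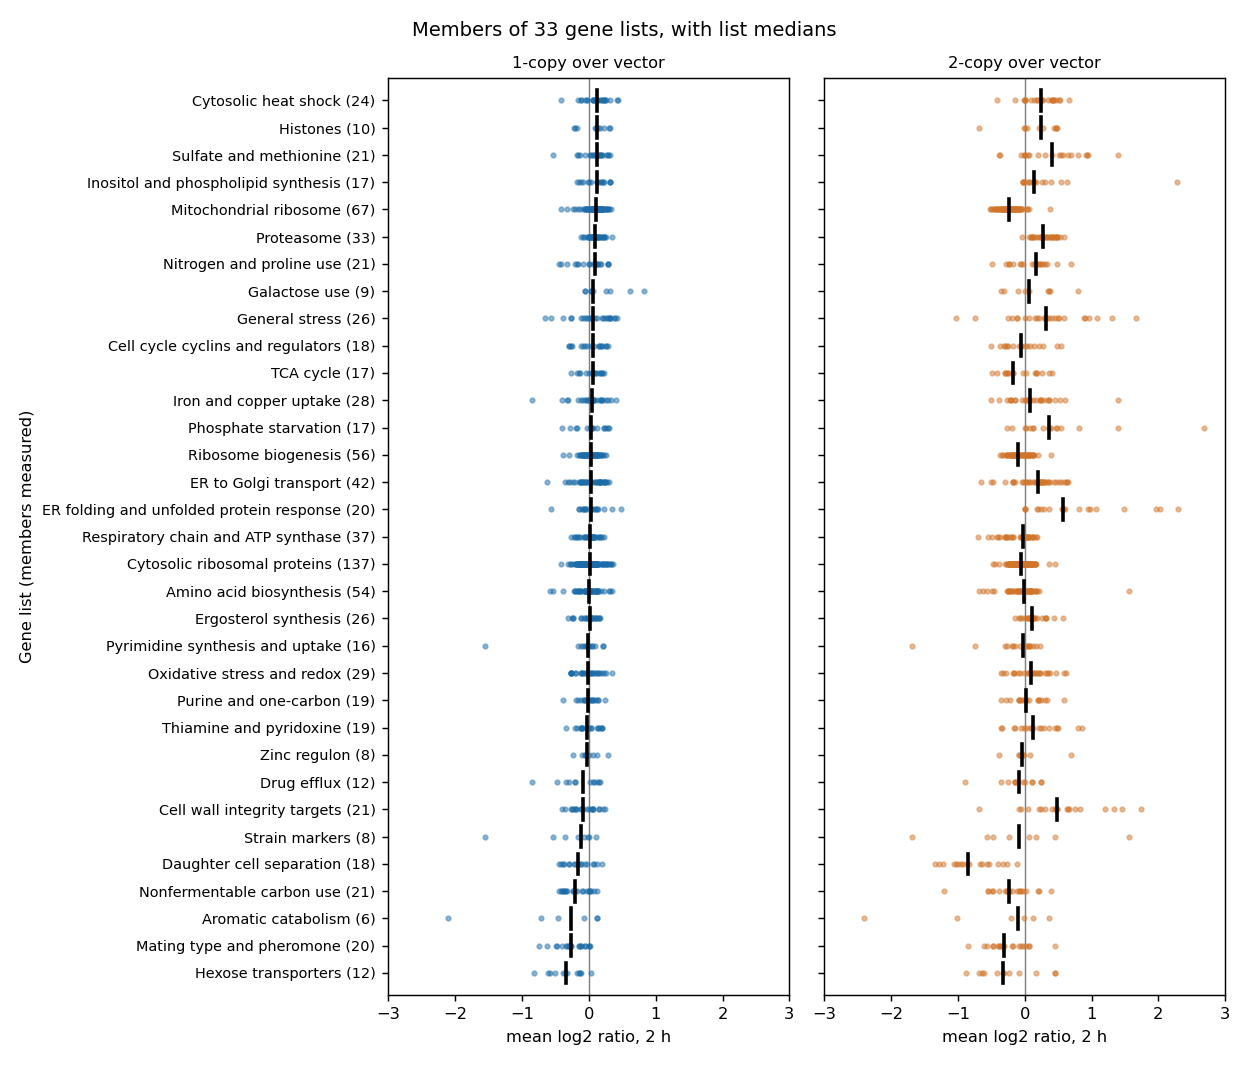
The mean log2 ratio at 2 h (x axis) of each measured member (point) of the 33 lists (y axis) in 1-copy (left) and 2-copy (right) cells over vector, with a black bar at the list median. ER folding genes have a median of 0.03 on the left and 0.57 on the right, and daughter cell separation genes of -0.16 and -0.85.

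The 15 named genes that were highest in 2-copy cells at 2 h had 0 calls in 1-copy cells, while 3 of the 15 lowest were called lower in both. Of all probes, 0.58% were called higher and 4.19% lower in 1-copy cells, and these genes were picked by their 2-copy means. In 2-copy cells 636 probes (9.97%) were called, 363 higher (5.69%) and 273 lower (4.28%), and 9.75% were called on the arrays of 1-copy over 2-copy. The 15 named genes with the highest means in 2-copy cells had a median of 1.66, and in 1-copy cells the same 15 had a median of 0.03, between -0.27 and 0.48. The 15 lowest had a median of -1.05 in 2-copy and -0.30 in 1-copy cells, where they ran from -2.10 to 0.08. Both comparisons use vector RNA, so that they are not independent. For the difference between the 2 responses, 39 probes (0.612%) passed, 8 (0.125%) higher and 31 (0.486%) lower in 1-copy cells. Residuals of same-numbered arrays of the 2 groups correlated unevenly, at 0.112, 0.41 and 0.25 for numbers 1, 2 and 3. With replicate number as a block the count was 119 over the time course arrays and 7 over the 6 arrays alone. Of the 10 differences named by rule, 5 each way (PHO84, INO1, PIR3, CWP1, YET2, HO, AIM44, AMN1, MCM7 and ASH1), 10 passed in the first of these fits (adjusted p up to 0.0418), and in the second only PHO84 and YET2 did (0.0373 each), while the other 8 had adjusted p = 0.0573 to 0.0777.

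PHO84 (YML123C), the high-affinity phosphate transporter, read -0.27, 0.52 and -0.13 in 1-copy cells and 2.65, 2.98 and 2.41 in 2-copy cells. The groups did not overlap, and the difference was -2.64 (SE 0.63, adjusted p = 0.0217). INO1 (YJL153C), which makes inositol phosphate, read 0.38, -0.18 and 0.41 against 2.15, 2.59 and 2.09 (difference -2.07, SE 0.418, adjusted p = 0.00545). The cell wall protein genes PIR3 (YKL163W) and CWP1 (YKL096W) differed by -1.85 and -1.73 (adjusted p = 0.0217 and 0.00545), and YET2 (YMR040W), an ER membrane protein, by -1.60 (adjusted p = 0.0121). The arrays that set 1-copy directly against 2-copy cells gave means of -2.69 ± 0.128 for PHO84, -1.88 ± 0.125 for INO1 and -1.95 ± 0.329 for YET2. Leaving out any 1 number ended the call of the difference for PHO84 (adjusted p = 0.214, 0.137 and 0.194 without numbers 1, 2 and 3), PIR3 (0.376, 0.145 and 0.131), CWP1 (0.102, 0.0711 and 0.0528) and YET2 (0.102, 0.145 and 0.131). For INO1 only leaving out number 2 did so (0.181).

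Genes of the ER showed the same contrast in level. KAR2 averaged 0.04 ± 0.0442 in 1-copy and 2.02 ± 0.632 in 2-copy cells, and ERO1 0.13 ± 0.163 and 1.96 ± 0.288. Their differences of -1.98 and -1.83 did not pass in the fit over all arrays (adjusted p = 0.182 and 0.161), whereas the direct arrays of 1-copy over 2-copy gave -2.05 and -1.95 (adjusted p = 0.000754 and 0.00035). Of the 20 ER folding genes, 11 were higher in 2-copy cells and 0 in 1-copy cells, and the difference itself passed for 2, the disulfide isomerase gene PDI1 (YCL043C; -1.56, adjusted p = 0.0217) and the ER J-protein gene JEM1 (YJL073W; -0.72, adjusted p = 0.0126). Among all probes, 5.69% were called higher in 2-copy cells and 0.58% in 1-copy cells. The ER list was chosen with earlier results of these data known, so that its counts are not independent of them. ULI1 differed by -1.81 (SE 0.849, adjusted p = 0.711).

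Of the 8 probes that were higher in 1-copy than in 2-copy cells, the 5 with the largest differences among those that met the naming rule are given first. HO (YDL227C), the mating type endonuclease, read 0.22, 0.26 and -0.31 in 1-copy and -1.25, -0.69 and -1.91 in 2-copy cells (difference 1.34, SE 0.335, adjusted p = 0.032). AIM44 (YPL158C), of the bud neck, was at -0.13, -0.10 and -0.13 against -1.12, -1.52 and -1.37 (difference 1.22, adjusted p = 0.00659). AMN1 (YBR158W), a daughter-specific inhibitor of mitotic exit, differed by 1.11 (adjusted p = 0.00201), the helicase subunit gene MCM7 (YBR202W) by 0.81 (adjusted p = 0.000725) and ASH1 (YKL185W), the daughter repressor of HO, by 0.79 (adjusted p = 0.0217). MLO50 (YLR049C, 0.67, adjusted p = 0.0295), the mRNA decapping factor gene PAT1 (YCR077C, 0.57, adjusted p = 0.0169) and the unnamed YPR002C-A (1.02, adjusted p = 0.032) made up the 8. Without 1 number, adjusted p for HO and ASH1 ran above 0.05 each time (0.287, 0.0977 and 0.402 for HO; 0.103, 0.154 and 0.331 for ASH1). AIM44 kept its call only without number 1 (0.0284; 0.129 and 0.131 without numbers 2 and 3), AMN1 lost it only without number 3 (0.119) and MCM7 only without number 2 (0.0579). Of 18 genes listed under daughter cell separation, 13 were lower in 2-copy cells and 1 in 1-copy cells. The difference passed for 4, which are HO, AIM44, AMN1 and ASH1 as given above. The list was chosen with earlier results of these data known, so that its counts are not independent of them. Among all probes, 4.28% were called lower in 2-copy cells and 4.19% in 1-copy cells. SCW11 (YGL028C), a glucanase of cell separation, read -0.40, -0.08 and -0.70 in 1-copy cells and -1.12, -0.90 and -1.65 in 2-copy cells, a difference that did not pass (0.83, SE 0.267, adjusted p = 0.207).

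**Figure D4:**
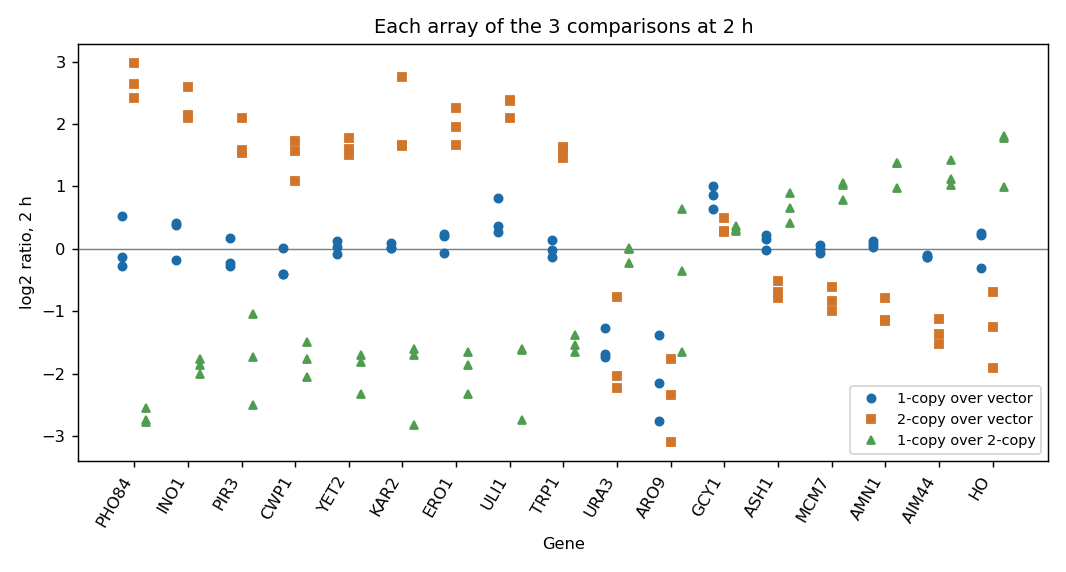
The log2 ratio at 2 h (y axis) of 17 genes (x axis) on each array of 1-copy over vector, 2-copy over vector and 1-copy over 2-copy. The 1-copy over vector arrays lie between -0.41 and 0.81 from PHO84 to TRP1, where the 2-copy arrays lie above 1, and both lie below 0 for URA3 and ARO9.

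Along the time course, few probes of the 1-copy response differed between 2 h and another time. From 0 h to 2 h, 1 probe passed (0.0157%), FMS1 (YMR020W), a polyamine oxidase, and 148 had an unadjusted p below 0.05. It read 0.19, 0.29 and 0.22 at 0 h and -1.95, 0.16 and -1.55 at 2 h, so that array 2 stayed near the 0 h level (change -1.35, SE 0.256, adjusted p = 0.00994). The call was lost without number 1 (adjusted p = 0.5) or number 3 (0.83), and the sums over the other arrays at 2 h, -0.80, 1.16 and 0.13, averaged above 0. FMS1 was also the single call from 2 h to 4 h (0.0157%; 1.31, adjusted p = 0.017), where it read 0.11, 0.26 and 0.22; the groups overlapped.

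By 6 h, 7 probes (0.11%) had moved from their 2 h values, 3 higher (0.047%) and 4 lower (0.0627%). FDH1 (YOR388C), formate dehydrogenase, went from -0.38, -0.16 and 0.23 at 2 h to 1.62, 1.73 and 1.39 at 6 h, with no overlap (1.68, SE 0.251, adjusted p = 3.24e-05). It rose whichever number was left out (adjusted p = 0.00016 to 0.00901), and it stood at -1.05, -0.04 and 0.28 at 0 h, where array 1 was the lowest, and at 0.27, 0.11 and 0.11 at 4 h. The mannosyltransferase gene MNN5 (YJL186W) fell by 1.12 (adjusted p = 0.00951), the aryl-alcohol dehydrogenase gene AAD4 (YDL243C) by 0.68 (adjusted p = 0.0179) and GTO1 (YGR154C) by 0.61 (adjusted p = 0.0275). ECM34 rose by 1.03 (adjusted p = 0.0179), from the 2 h values that array 2 set, and by 0.48 without number 2 (adjusted p = 0.838). AAD4 and GTO1 passed under none of the fits that left out 1 number (lowest adjusted p = 0.0776 and 0.115), and MNN5 only without number 1 (0.000468; 0.102 and 1 without numbers 2 and 3). The unnamed YAR073W (-1.41) and YPL277C (0.88) completed the 7. PHO84 and INO1 stood at 1.21, 1.83 and 1.81, and at 1.89, 1.61 and 0.34 at 6 h, but their changes from 2 h did not pass (1.57, adjusted p = 1; 1.07, adjusted p = 0.95).

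**Figure D5:**
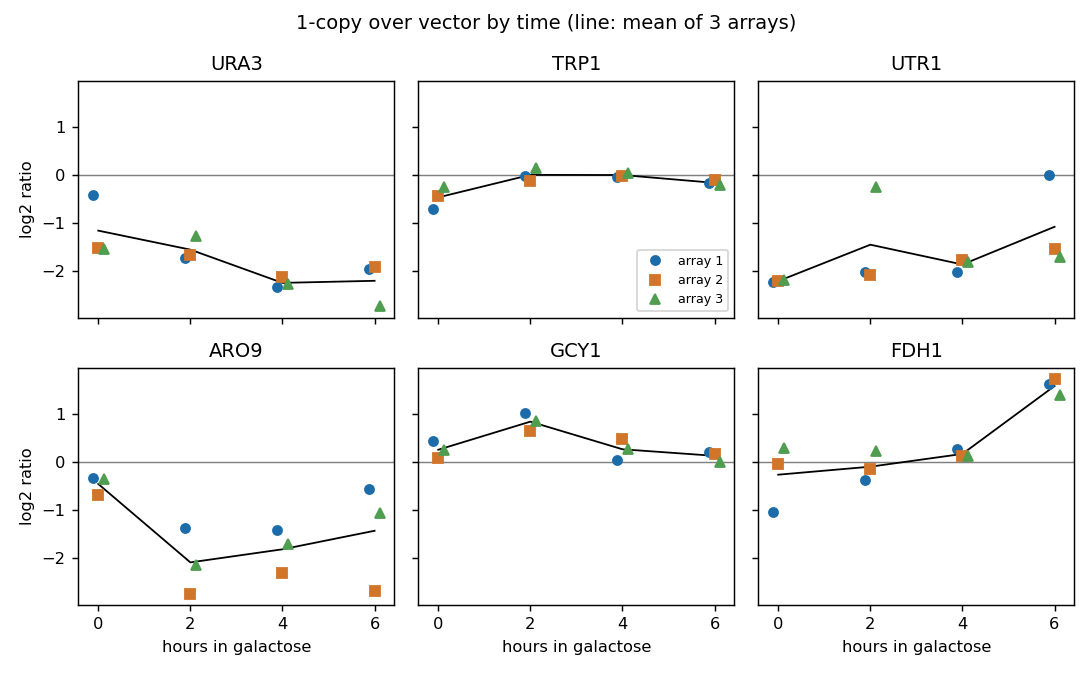
The log2 ratio of 1-copy over vector (y axis) of 6 genes against hours in galactose (x axis), with 1 symbol per array and a line through the means. URA3 and UTR1 are below 0 at 0 h, ARO9 lies lower at 2 h (-1.39 to -2.76) than at 0 h (-0.33 to -0.69), and FDH1 lies between -1.05 and 0.28 up to 4 h and between 1.39 and 1.73 at 6 h.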

How the data were processed

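RNA was extracted with hot phenol and hybridised on 2-colour arrays, per the labels' protocols, as 3 pairs of biological replicates per comparison without a dye swap. What the authors deposited is a normalised log2 ratio for each probe; the submitters' processing notes name limma without its settings or version. Log base and Cy5 over Cy3 as the direction are not stated and were read from limma's convention; the dye of each sample is in the labels. Raw intensities were not analysed here, so signal over background is unknown, and the number of arrays limits the precision. Of 6377 probes, 537 matched no locus tag of the R64 reference, and 5227 have a symbol.

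A linear model with 1 mean per group over 93 arrays was fitted in limma 3.58.1 (R 4.3.3; two-sided moderated tests, 67.6 degrees of freedom), with Benjamini-Hochberg adjustment over all probes and a threshold of 0.05. Values are mean ± SD of 3 arrays; a difference has its SE.

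Named genes had a symbol, 1 sign on all 3 arrays and an adjusted p below 0.05: the 15 highest and 15 lowest means. For a difference, groups also had to be free of overlap, and up to 5 were taken each way. Up to 4 members of each list, strain markers, galactose genes and marker neighbours were added. Other genes were chosen after their values were seen. Among them are OLI1, ATP6, ATP8, PLC1, BAR1, MFA1, MFA2, STE2, STE3, MF(ALPHA)1 and MF(ALPHA)2. Members and lists were chosen with earlier results of these data known.

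Alternatives were a dye term, scaling of arrays, array weights, other sets of arrays, median centring, the other 2 sides of the loop, a replicate block and leaving out a number. Residuals of same-numbered arrays correlated at 0.112, 0.41 and 0.25 between 1-copy and 2-copy over vector at 2 h, and the design text says that the same samples were used, so the numbers were taken to pair them there. Only the main model was tested on simulated data, for each comparison, with independent noise and known changes. The alternatives were not tested in that way.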

Additional observations from a re-analysis of the deposited data

Results flagged for a closer look

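Differences between groups passed their own test, over groups that did not overlap, for 16 named results. Between the responses of 1-copy and 2-copy cells at 2 h these were PHO84 (-2.64), INO1 (-2.07), PIR3 (-1.85), CWP1 (-1.73) and YET2 (-1.60), each lower in 1-copy cells, and HO (1.34), AIM44 (1.22), AMN1 (1.11), MCM7 (0.81) and ASH1 (0.79), each higher. With replicate number as a block over the 6 arrays alone, PHO84 and YET2 kept the call, and INO1, PIR3, CWP1, HO, AIM44, AMN1, MCM7 and ASH1 did not (adjusted p = 0.0777, 0.0777, 0.0573, 0.0777, 0.0694, 0.0717, 0.0777 and 0.071 in limma). Between 0 h and 2 h it was FMS1 (-1.35). Between 2 h and 6 h they were FDH1 (1.68), ECM34 (1.03), MNN5 (-1.12), AAD4 (-0.68) and GTO1 (-0.61). The values on each array and without each number stand in the results above. FDH1 was called without each of the 3 numbers, and the others lost their call without at least 1. No group here has the 4 arrays that a check for a single outlying array needs.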

How the results depend on the processing

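Counts of probes past the threshold depended on the model. For 1-copy over vector at 2 h (304), they were 675 with array scaling, 1177 with array weights, 537 with the replicate block, 1 with the dye term, 1 with the dye term over the time course arrays and 0 in the arrays of the comparison alone. With time course arrays (435), median centring (326) and the other sides of the loop (372, 169 shared with the 304) the count stayed within 1.5 times. Leaving out an array gave 77 to 307. Of the 304, 71 remained without array 3, 116 without array 1 and 226 without array 2.

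For the change from 0 h to 2 h (1), counts were 12 with scaling, 168 with weights, 0 to 8 without 1 number, and 0 each with the dye term, own arrays, time course arrays, the replicate block and the replicate block over own arrays (92 to 362 probes at an unadjusted p below 0.05 in limma where the count was 0). From 2 h to 4 h (1) they were 13 with the dye term, 143 with weights, 1 to 9 without 1 number, and 0 each with own arrays, time course arrays and both replicate blocks (190 to 488 at that unadjusted p). From 2 h to 6 h (7) they were 54 with scaling, 153 with weights, 3 with time course arrays, 4 with the replicate block, 8 to 11 without 1 number, and 0 with own arrays and the block over them (664 and 547 at that unadjusted p). For 1-copy minus 2-copy at 2 h (39) they were 204 with the dye term, 71 with scaling, 265 with weights, 100 with own arrays, 110 with time course arrays, 119 with the replicate block, 7 with the block over own arrays and 7 to 22 without 1 number. For the 3 changes with time, same-numbered arrays correlated between -0.227 and 0.265, so that the numbers were not taken to pair samples there. The dye term over time course arrays and the block over own arrays were chosen after seeing the data.

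Of 38 named genes called at 2 h, 37 lost the call with the dye term and 38 in own arrays; 38 kept it with scaling and 38 with weights. FMS1 turned to 0.17 on the other sides of the loop. The cause was not tested in any of these. Unknown signal over background limits the low probes.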
